A study of Homo sapiens with 8 samples.

Results

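The circadian clock's repressor genes and direct outputs, 10 genes in all, were followed in A375 melanoma cells with and without serum. The 10 are the period genes PER1, PER2 and PER3, the cryptochromes CRY1 and CRY2, CIART, the REV-ERB receptors NR1D1 and NR1D2, and the PAR-bZIP factors DBP and TEF. They were chosen by name, from the clock's known repressors and outputs, and are 10 of the 58051 genes in the count files. All 10 were among the 17671 genes that passed the filter on low counts and were tested.

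The study used the response to serum withdrawal to look for secreted factors linked to the adherens junctions that melanoma cells form without serum. RNA depleted of ribosomal RNA was sequenced from 4 lines, WT1 to WT4 (wild type, in a study that sets NECTIN1-wild-type against NECTIN1-deficient cells), each grown from a single A375 cell, so that each line is 1 clone. In the serum group (4 libraries) cells spent 12 h in DMEM with 10% FBS, and in the serum-free group (4 libraries) 12 h in DMEM with 0% FBS. Both groups had first been grown in DMEM with 10% FBS to partial confluence, and each line gave 1 library per group. In serum, 39647157, 67101005, 45095740 and 29759279 reads fell on genes in WT1 to WT4, and without serum 40468165, 73341551, 37847737 and 53371498. All libraries are from 1 time point, so the values are levels at that time and give no rhythm or phase.

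In the core loop of the clock, CLOCK and BMAL1 bind E-box sequences and activate the PER, CRY, CIART and NR1D genes, and the PER and CRY proteins return to the nucleus to repress CLOCK and BMAL1. The REV-ERB receptors repress BMAL1 in a linked loop, while DBP and TEF carry the rhythm to other genes through D-box sequences. Serum is a known resetting signal for the clock of cultured cells, and PER1 and PER2 are among the genes that respond to such signals.

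The labelled cell type was checked against marker genes, in CPM (read counts scaled to library size, with TMM factors). MITF, the melanocyte master regulator, stood at 35.3 to 44.2 CPM with serum and 30.1 to 35.6 CPM without (log2 fold change -0.28, edgeR adjusted p = 0.0496). SOX10, which marks most melanomas, had 0 counted reads in all 8 libraries, and the pigment genes PMEL and MLANA did not exceed 1.44 CPM. Reads shared by several genes were not counted, so 0 counted reads need not mean that SOX10 RNA was absent. The part of such reads in the SOX10 value was not tested. The 7 melanoma lineage markers summed to 50.6 to 69.3 CPM per library, with MITF the most abundant except in the serum-free WT3 library, where S100B was. S100B, a neural crest marker, stood at 13.6 to 24.2 CPM with serum and 14.9 to 34.9 CPM without, higher in 4 of 4 lines (log2 fold change 0.30, edgeR adjusted p = 0.492, and 0.0469 with the line as a block). Of the 4 markers of undifferentiated melanoma, AXL was the most abundant, and the list summed to 347 to 865 CPM. AXL was lower without serum in 4 of 4 lines (log2 fold change -0.32, edgeR adjusted p = 0.253, and 5.88e-04 with the block), as was the lineage marker DCT (-0.98, edgeR adjusted p = 0.435, and 0.0251 with the block). The other undifferentiated markers went the other way, EGFR and SOX9 in 4 of 4 lines and NGFR in 3 of 4, but EGFR and NGFR did not pass with the block and SOX9 was too low to be tested. The part of these markers in the clock results was not tested. The 4 fibroblast markers summed to 5.46 to 9.43 CPM, most abundant LUM except for DCN in the serum-free WT2 library, the 2 keratinocyte markers to 11.7 to 21.7 CPM, most of it KRT14, and the endothelial marker CDH5 lay between 0.117 and 1.33 CPM. DCN, at 0.282 to 3.95 CPM, was higher without serum in 3 of 4 lines (log2 fold change 0.87, edgeR adjusted p = 0.355, and 0.0125 with the block). LUM was lower without serum in 3 of 4 lines (-0.33) and did not pass with the block (edgeR adjusted p = 0.104). COL1A1 was higher in 2 lines and lower in 2, and COL1A2, too low to be tested, was lower in 4 of 4. The part of these fibroblast markers in the clock results was not tested. The leukocyte marker PTPRC did not exceed 0.0514 CPM. NECTIN1, the adhesion gene of the study, had 50.8, 59.5, 54.9 and 67.4 CPM in WT1 to WT4 with serum and 45.0, 48.6, 47.5 and 44.9 CPM without, so that all 4 serum-free values lay below the serum values (log2 fold change -0.32, edgeR adjusted p = 0.0260). In bulk RNA, fewer cells that express a gene and less of its RNA per cell cannot be told apart.

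Serum-free and serum libraries were compared with edgeR's quasi-likelihood test, with p-values adjusted by the Benjamini-Hochberg method over all 17671 genes and called under 0.05. Of the 10 clock members 0 were called by edgeR, against 25.1% of all tested genes (11.1% higher and 14% lower without serum), and 0 had an unadjusted p under 0.05. Limma voom also gave 0 at either threshold, and DESeq2 called 0 with 1, PER2, at an unadjusted p under 0.05. The split over all genes depends on the scaling, with 1957 genes called higher and 2477 lower under TMM, 2508 and 1843 under upper-quartile scaling, and 3168 and 1365 without TMM, where the median of all genes moved from 0.03 to 0.15. The groups overlapped for 10 of 10 members, while over all genes all 4 serum-free values lay above the serum values in 12.6% and below them in 15%. The median log2 fold change of the members was 0.10 under TMM and 0.22 without it. Its sign depends on the setting, at -0.0054 without the serum-free WT4 library and -0.054 with the lines as a block and a correction for GC content.

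The 4 lines can be paired across conditions, and a fit with the line as a block compares each line with itself. With that block in edgeR 2 members rose, NR1D1 and NR1D2, and 2 fell, PER2 and CRY1. With the block and a correction for GC content, only PER2 and NR1D2 passed. NR1D1 was then 0.13 (edgeR adjusted p = 0.235) and CRY1 -0.05 (edgeR adjusted p = 0.467). Over all genes the block called 45.7%, with 23.2% higher and 22.4% lower, so that 4 of 10 members is a share near that of all genes. DBP, PER2, CRY1, NR1D1 and NR1D2 differed in the same direction in all 4 lines and the other 5 members did not, while over all tested genes 9786 of 17671 did.

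**Figure D1:**
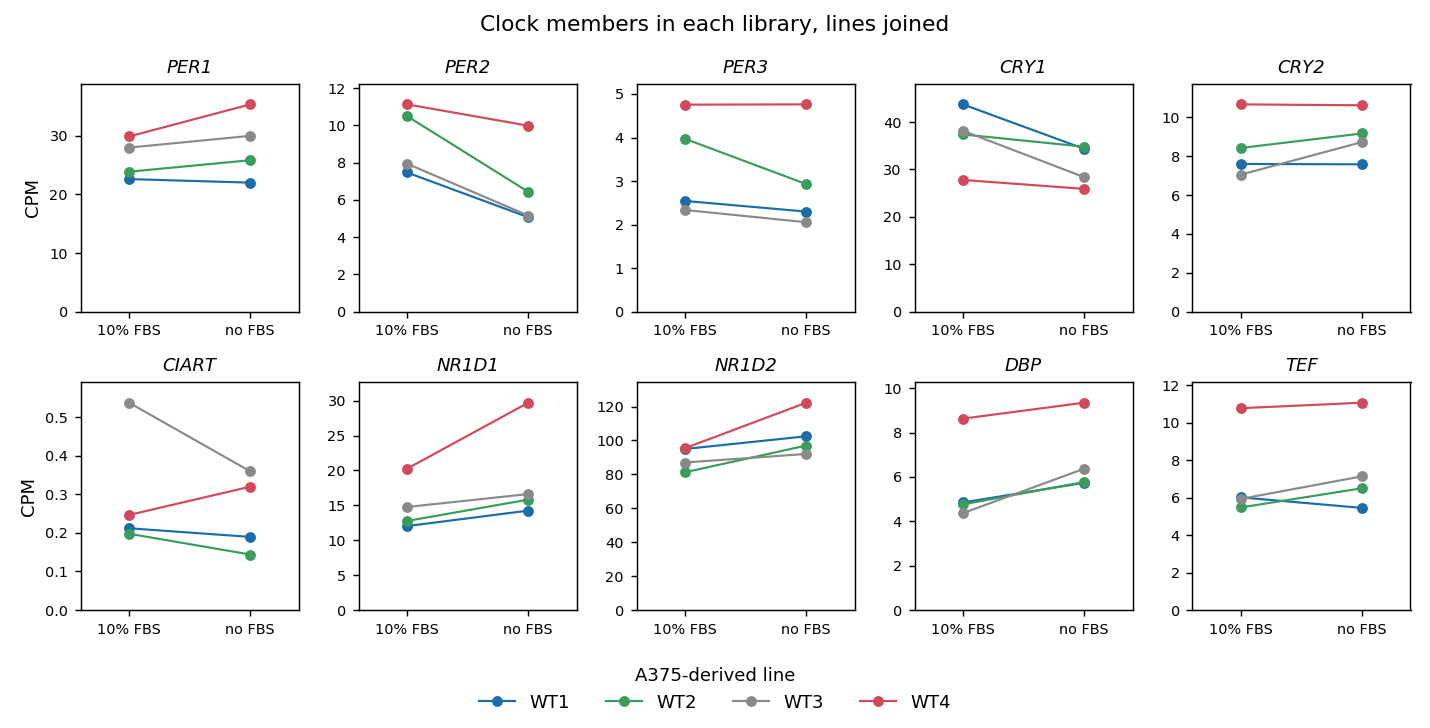
CPM of the 10 clock members (vertical axes, each from 0) in the 4 lines with 10% FBS and without FBS, 1 point per library, with the 2 libraries of each line joined. Without FBS, PER2 and CRY1 are lower and NR1D1, NR1D2 and DBP higher in each of the 4 lines, and WT4 is the highest line for 8 members in both conditions.

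Promoter sequences are shown for the 4 members that were called with the block, because E-box and D-box elements are the sites through which the clock's own factors are known to act. RefSeq promoters (GRCh38.p14, 250 bases before to 50 bases after a start site) matched all 10 members with 14 windows, since PER3, CRY2, NR1D2 and TEF have 2 start sites each. Each window is printed 5′ to 3′ on the gene's strand, with matches in capitals. PER2 is at chr2:238288561-238288860 (minus strand), CRY1 at chr12:107093500-107093799 (minus), NR1D1 at chr17:40100540-40100839 (minus) and the second NR1D2 window at chr3:23945871-23946170 (plus). None of the searched motifs was found in the first NR1D2 window. The PER2 and NR1D2 windows printed lie at start sites inside the span of the gene, and the other windows printed at its outer end.
PER2: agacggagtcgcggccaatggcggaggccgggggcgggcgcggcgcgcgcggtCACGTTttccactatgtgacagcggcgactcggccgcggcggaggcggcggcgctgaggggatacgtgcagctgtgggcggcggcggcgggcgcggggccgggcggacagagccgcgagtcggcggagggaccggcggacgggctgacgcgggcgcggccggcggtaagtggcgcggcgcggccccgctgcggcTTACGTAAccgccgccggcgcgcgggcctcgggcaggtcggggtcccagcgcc
CRY1: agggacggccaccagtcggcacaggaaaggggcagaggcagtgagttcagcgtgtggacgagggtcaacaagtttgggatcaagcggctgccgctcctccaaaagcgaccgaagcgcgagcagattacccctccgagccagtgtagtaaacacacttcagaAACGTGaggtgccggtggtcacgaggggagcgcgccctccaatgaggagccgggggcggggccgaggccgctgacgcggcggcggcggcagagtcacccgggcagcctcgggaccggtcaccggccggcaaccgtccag
NR1D1: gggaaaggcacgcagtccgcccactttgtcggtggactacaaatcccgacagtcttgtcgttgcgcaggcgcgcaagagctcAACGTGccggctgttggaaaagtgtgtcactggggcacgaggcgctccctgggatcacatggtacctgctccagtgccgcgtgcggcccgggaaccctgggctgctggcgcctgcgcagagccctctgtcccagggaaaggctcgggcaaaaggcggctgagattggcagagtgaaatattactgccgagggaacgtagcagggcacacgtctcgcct
NR1D2: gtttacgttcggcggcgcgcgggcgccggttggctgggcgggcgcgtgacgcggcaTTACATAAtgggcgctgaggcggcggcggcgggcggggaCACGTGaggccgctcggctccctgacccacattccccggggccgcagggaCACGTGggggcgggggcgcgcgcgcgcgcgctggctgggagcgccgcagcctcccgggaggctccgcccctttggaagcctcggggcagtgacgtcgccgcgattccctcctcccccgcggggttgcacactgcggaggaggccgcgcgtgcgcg

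The motifs were searched on both strands as exact letters, and no searched motif overlaps another in these windows. The E-box CACGTG was found in CIART, NR1D2, PER1 and TEF, 4 of 10 members. By window, it was in 5 of the 14 member windows and in 7.26% of 35116 promoters. In NR1D2 it lay 155 and 105 bases before the start site. The E-box-like CACGTT, which reads AACGTG on the other strand, was found in PER2, CRY1, CRY2 and NR1D1 (4 of 14 windows), and in 5.34% of promoters. The D-box was searched as TTATGTAA, which reads TTACATAA on the other strand, and as the palindrome TTACGTAA. It was found in PER2, PER3 and NR1D2 (3 of 14 windows), and in 1.01% of promoters. In PER2 the D-box began 3 bases before the start site and the E-box-like sequence 197 bases before it. The AGGTCA site of the ROR and REV-ERB receptors, which reads TGACCT on the other strand, was found in PER1 and CRY2 (3 of 14 windows). Of all promoters, 13.8% held it. The cAMP response element TGACGTCA was in none of the 14 windows and in 1.85% of promoters. The 14 windows were matched only by their letters, and no binding was measured.

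PER1, PER2 and PER3 encode the period proteins, the partners of the cryptochromes in the repressor complex. PER2 (ENSG00000132326, chr2:238244044-238300065) had 7.47, 10.5, 7.95 and 11.1 CPM in WT1 to WT4 with serum, and 5.07, 6.44, 5.16 and 9.99 CPM without. The serum-free values of WT1, WT2 and WT3 lay below all 4 serum values, and that of WT4 lay among them. PER2 was lower by a log2 fold change of -0.47 ± 0.24 (SE, n = 4 per group, edgeR adjusted p = 0.170), with a 95% interval of -0.996 to 0.0525. With the line as a block the estimate was -0.51 and passed the threshold (edgeR adjusted p = 0.00227, lower in 4 of 4 lines). It also passed with the block and a correction for GC content (-0.61, edgeR adjusted p = 4.84e-04) and in the blocked fit with each line left out in turn. The line differences were -0.56, -0.70 and -0.62 in WT1, WT2 and WT3 and -0.16 in WT4. Without WT4 the groups did not overlap, and PER2 was called without a block (-0.63, edgeR adjusted p = 0.0237). Leaving out the serum-free WT4 library alone gave -0.73 (edgeR adjusted p = 0.0297).

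PER1 (ENSG00000179094, chr17:8140472-8152404) had 22.6, 23.9, 28.0 and 29.9 CPM with serum in WT1 to WT4, and 22, 25.8, 30.0 and 35.3 CPM without. The same order of lines was seen in both conditions, and the groups overlapped. The log2 fold change was 0.12 ± 0.15 (SE, n = 4 per group, edgeR adjusted p = 0.600), 95% interval -0.21 to 0.45. It was -0.0054 without the serum-free WT4 library and -0.15 with the block and GC correction. With the block alone PER1 was 0.11 and did not pass (edgeR adjusted p = 0.241), with a 95% interval of -0.05 to 0.26. PER3 (ENSG00000049246, chr1:7784291-7845177) was the lowest of the 3 period genes, at 2.54, 3.97, 2.34 and 4.76 CPM with serum and 2.30, 2.93, 2.05 and 4.76 CPM without. WT4 had the highest value in both conditions, where its libraries differed by 0.0021 log2 units. The log2 fold change of PER3 was -0.17 ± 0.32 (SE, n = 4 per group, edgeR adjusted p = 0.736), with a 95% interval of -0.88 to 0.54, and 0.028 without the serum WT4 library. With the block PER3 was -0.20 and did not pass (edgeR adjusted p = 0.309), with a 95% interval of -0.52 to 0.13. Exons of PER3 overlap other genes in 16.6% of their bases, of which UTS2 on the opposite strand takes 10.7%, and reads that overlap several genes were not counted. UTS2 had reads in only 1 library, the serum-free WT4 library, where it had 4.

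CRY1 and CRY2 encode cryptochromes, the light-independent repressors of CLOCK and BMAL1. CRY1 (ENSG00000008405, chr12:106991364-107093549) stood at 43.7, 37.4, 38.2 and 27.8 CPM in WT1 to WT4 with serum, and at 34.4, 34.8, 28.4 and 25.9 CPM without. WT4 was the lowest line in both conditions, and its serum value lay below 3 of the serum-free values. CRY1 was lower without serum by a log2 fold change of -0.25 ± 0.14 (SE, n = 4 per group, edgeR adjusted p = 0.228), with a 95% interval of -0.58 to 0.07. With the block the estimate was -0.24 and passed (edgeR adjusted p = 0.0130), but with the block and the GC correction it was -0.05 (edgeR adjusted p = 0.467). With the block, CRY1 did not pass without WT1 (-0.21, edgeR adjusted p = 0.0892) or without WT3 (-0.20, edgeR adjusted p = 0.0831). Its size there stayed close to that with all lines. Without the serum WT4 library, CRY1 was called with no block (-0.37, edgeR adjusted p = 0.0392), while it was -0.16 without the serum WT1 library (edgeR adjusted p = 0.491) and -0.17 without the serum-free WT4 library (edgeR adjusted p = 0.435).

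CRY2 (ENSG00000121671, chr11:45847118-45883244) lay between 7.06 and 10.7 CPM with serum and between 7.59 and 10.6 CPM without. WT4 was highest in both conditions and the groups overlapped. Its log2 fold change was 0.10 ± 0.16 (SE, n = 4 per group, edgeR adjusted p = 0.687), with a 95% interval of -0.26 to 0.46. It was 0.012 without the serum-free WT4 library and 0.23 without the serum WT4 library. Its line differences were -0.0037, 0.12, 0.31 and -0.0063 in WT1 to WT4, and with the block and GC correction the estimate was -0.055. With the block alone CRY2 was 0.10 and did not pass (edgeR adjusted p = 0.431), with a 95% interval of -0.11 to 0.32.

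CIART (ENSG00000159208, chr1:150282554-150287093) encodes a repressor that binds BMAL1. It was at the edge of detection, with 8, 13, 23 and 7 reads in WT1 to WT4 with serum and 8, 11, 14 and 18 reads without. The serum WT3 library was highest at 0.538 CPM, and WT4 was the 1 line with a higher value without serum. The log2 fold change of -0.26 ± 0.47 (SE, n = 4 per group, edgeR adjusted p = 0.730) has a 95% interval from -1.31 to 0.80. It was -0.035 without the serum-free WT2 library and -0.46 without the serum-free WT3 library. The shares of counting error and of the spread between lines in the width of that interval were not tested. With the block CIART was -0.23 and did not pass (edgeR adjusted p = 0.692), with a 95% interval from -1.15 to 0.68.

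NR1D1 and NR1D2 encode the REV-ERB receptors, heme-binding repressors of BMAL1. NR1D1 (ENSG00000126368, chr17:40092793-40100589) stood at 12.0, 12.8, 14.8 and 20.3 CPM in WT1 to WT4 with serum, and at 14.2, 15.8, 16.6 and 29.7 CPM without. Each line was higher without serum, by 0.24, 0.31, 0.17 and 0.55 log2 units, but the serum WT4 value exceeded 3 of the 4 serum-free values. The log2 fold change was 0.36 ± 0.26 (SE, n = 4 per group, edgeR adjusted p = 0.347), with a 95% interval of -0.23 to 0.94. It was 0.06 without the serum-free WT4 library and 0.53 without the serum WT4 library. With the block it was 0.32 and passed (edgeR adjusted p = 0.00641), and it passed with each line left out in turn. With the block and the GC correction it was 0.13 (edgeR adjusted p = 0.235). Exons of NR1D1 overlap those of THRA, on the opposite strand, in 18% of their bases, and without a stated strand setting their reads cannot be told apart there. THRA itself had 23.6, 24.6, 31.1 and 32.6 CPM with serum and 32.9, 31.6, 38.9 and 34.0 CPM without (log2 fold change 0.30, edgeR adjusted p = 0.0980, and 0.00374 with the block), and its part in the NR1D1 values was not tested.

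NR1D2 (ENSG00000174738, chr3:23945286-23980617) was the most abundant member, at 95, 81.2, 87.0 and 95.5 CPM with serum and 102, 97.0, 92.0 and 122 CPM without. Only the serum-free WT3 value lay below the highest serum values, those of WT1 and WT4. The log2 fold change was 0.21 ± 0.10 (SE, n = 4 per group, edgeR adjusted p = 0.148), with a 95% interval of -0.01 to 0.42. With the block it was 0.20 and passed (edgeR adjusted p = 0.0133), and with the GC correction as well it was 0.37 (edgeR adjusted p = 3.61e-06). Left without WT2, the blocked fit gave 0.18, a similar size, and did not pass (edgeR adjusted p = 0.0800). Scaling to total counts, without TMM, gave 0.33 (edgeR adjusted p = 0.0356), while leaving out the serum-free WT4 library gave 0.12 (edgeR adjusted p = 0.359).

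DBP and TEF encode activators of D-box genes. DBP (ENSG00000105516, chr19:48630030-48637379) had 4.85, 4.76, 4.37 and 8.63 CPM in WT1 to WT4 with serum, and 5.74, 5.77, 6.37 and 9.35 CPM without. Without serum every line was higher than with it, and the serum WT4 value exceeded the other serum-free values. The log2 fold change of DBP was 0.27 ± 0.25 (SE, n = 4 per group, edgeR adjusted p = 0.458, 95% interval -0.28 to 0.83), and with the block it was 0.29 and did not pass (edgeR adjusted p = 0.0566). Without a block it was 0.08 without the serum-free WT4 library and 0.55 without the serum WT4 library. Without WT4 the blocked value passed (0.35, edgeR adjusted p = 0.0326), while it was 0.20 without WT3 (edgeR adjusted p = 0.268) and 0.12 with the GC correction (edgeR adjusted p = 0.413). Exons of SPHK2, on the other strand, overlap 10.2% of the DBP exon bases, and SPHK2 stood at 35.1 to 49.4 CPM with serum and 35.7 to 44.1 CPM without. TEF (ENSG00000167074, chr22:41367455-41399326) stood at 6.02, 5.48, 5.94 and 10.8 CPM with serum and 5.45, 6.50, 7.14 and 11.1 CPM without. WT4 was again above the other lines, and the log2 fold change was 0.10 ± 0.27 (SE, n = 4 per group, edgeR adjusted p = 0.817), with a 95% interval of -0.51 to 0.72. It was -0.14 without the serum-free WT4 library, -0.0033 without the serum WT2 library and -0.037 with the block and GC correction. With the block alone TEF was 0.11 and did not pass (edgeR adjusted p = 0.467), with a 95% interval of -0.13 to 0.35. Positions are those of GRCh38.p14 in RefSeq.

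**Figure D2:**
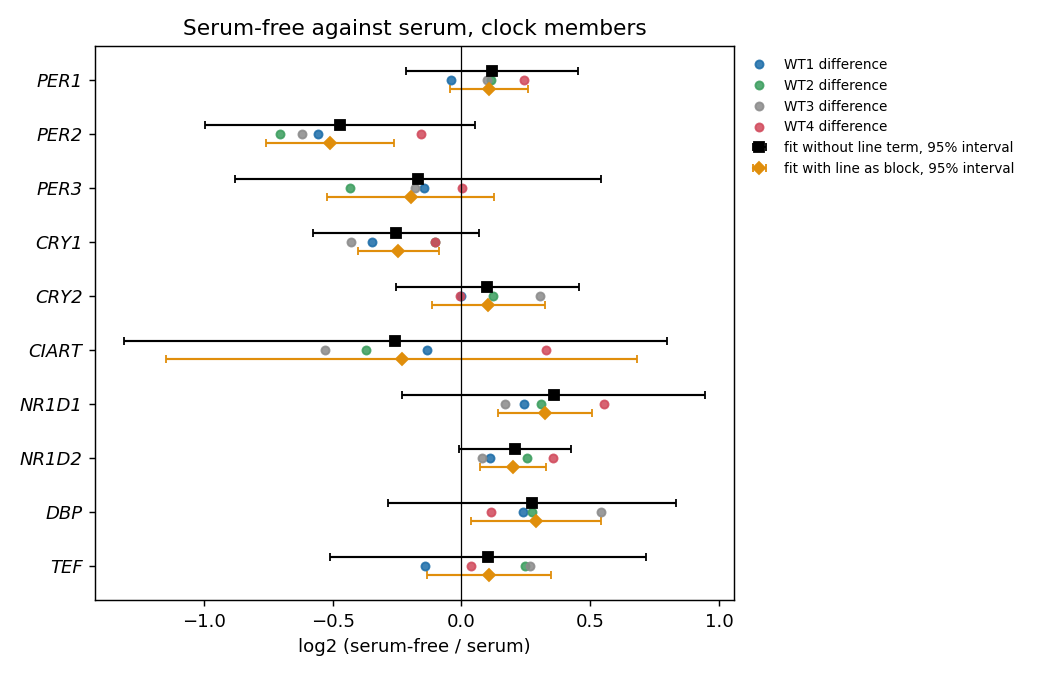
Log2 ratio of serum-free to serum for each member (horizontal axis), with the 95% intervals of the fit without a line term (black squares) and with the line as a block (orange diamonds), and the difference in each line (circles). The intervals of the fit without a line term cross 0 for all 10 members, and those of the blocked fit lie to 1 side of 0 for PER2, CRY1, NR1D1, NR1D2 and DBP.

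Differences between lines were tested after the values had been seen, with an edgeR quasi-likelihood F test of the line terms in a model that also held the condition. Of the 10 members 7 differed between the 4 lines, and 22.9% of all tested genes did. These were NR1D1 (edgeR adjusted p = 1.46e-04), TEF, PER3, DBP, PER1, PER2 and CRY1 (edgeR adjusted p = 0.00852). NR1D1 was 0.92 log2 units higher in WT4 than in WT1, TEF 0.93, DBP 0.76, PER3 0.98, PER2 0.79 and PER1 0.55. CRY1 was the exception, at -0.53. WT4 held the highest value of 8 members in both conditions and the lowest of CRY1, while over all tested genes it was highest in both conditions for 18.1% and lowest for 19.1%. Some markers of cell state also differed in WT4, with NGFR at 32.9 and 24.1 CPM against 64.0 to 199 CPM in the other lines and AXL lowest in WT4 in both conditions, at 481 and 309 CPM. DCT was also lowest in WT4 in both conditions, at 0.247 and 0.0711 CPM. Others did not set WT4 apart, or not in both conditions: EGFR was 8.98 and 13.8 CPM in WT4 and 11.8 and 13.2 CPM in WT3. MITF in WT4 lay within the range of the other lines with serum. Without serum it was highest in WT4, at 35.6 CPM against 30.1 to 35.0 CPM. Their part in the WT4 values was not tested. Its NR1D1 level was 1.54 times the mean of the other 3 lines with serum and 1.91 times without, and its DBP level 1.85 and 1.57 times. Without WT4, where CIART was not tested, 1 of 9 members differed among the lines WT1, WT2 and WT3, PER1 (edgeR adjusted p = 0.00714), beside 18.6% of all tested genes. The count files given for WT4 are named unlike those of the other lines, and only GEO's labels tie them to it. Each line is 1 clone with 1 library per condition, so a property of the clone and one shared by its 2 libraries cannot be told apart.

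**Figure D3:**
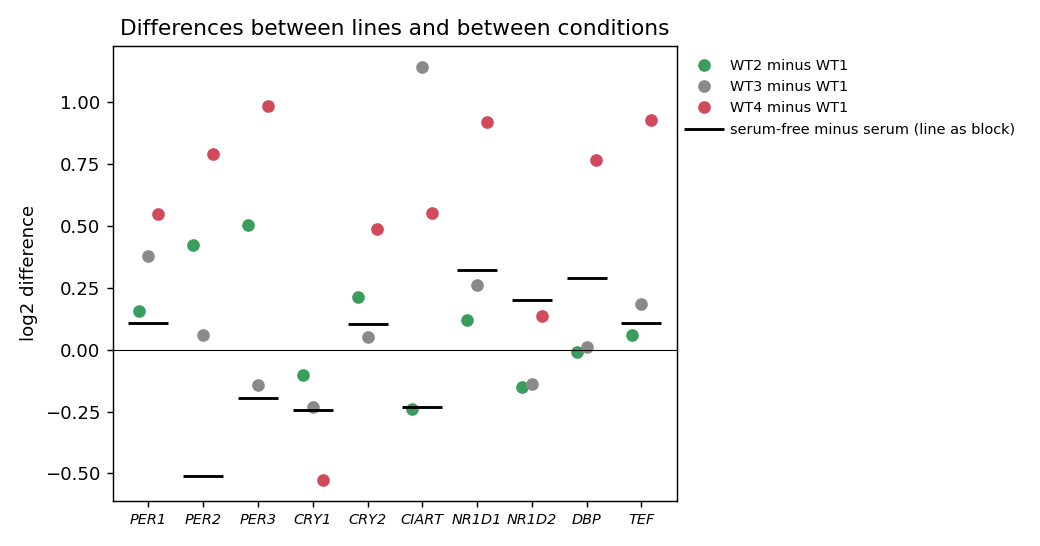
Log2 difference of WT2, WT3 and WT4 from WT1 for each member (circles, condition in the model), and the serum-free to serum difference with the line as a block (black bars). For PER3, NR1D1 and TEF the WT4 value lies above 0.9, beyond the condition difference of the same gene.

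The members were also compared with each other across the 8 libraries. The highest Pearson correlation of log2 CPM among the 45 member pairs was that of DBP with TEF, 0.93, and 9 pairs reached 0.80. CRY1 ran opposite to DBP (-0.90) and to NR1D1 (-0.88), and PER2 followed PER3 (0.87). The 8 values share lines and conditions, so these are descriptions with no test. Each member was then compared with the 11523 other protein-coding genes whose mean count reached 100. NR1D1 was most like IRGQ (0.99) and LSR (0.99), CRY1 most like PALS1 (0.996) and PTER (0.99), and PER2 most like RPN2 (0.95) and GALNT13 (0.95). NR1D2 was most like PCDH9 (0.97) and ANKRD13A (0.96), and DBP most like LGALS3 (0.99) and RRAGA (0.98). PER1 was most like SPRED3 (0.96), PER3 CD55 (0.98) and TAGLN3 (0.97), CRY2 ARFGAP3 (0.97) and ESRRA (0.96), CIART FAM133A and OAT (0.96 each), and TEF IPO13 and PTPRU (0.97 each).

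Between genes, levels were compared as RPKM, the CPM per kilobase of merged exons. Whether reads outside exons were also counted is not known, so these levels hold only as far as the counted reads came from exons. NR1D2 was highest, at 15.5 ± 1.18 RPKM with serum and 17.9 ± 2.29 without (SD, n = 4), and CIART lowest, at 0.105 ± 0.0566 and 0.0893 ± 0.0363. CRY1 (7.69 RPKM with serum), NR1D1 (5.69) and PER1 (3.72) followed NR1D2, all above the median of tested genes at 2.75 RPKM. TEF, CRY2, PER2, DBP and PER3 lay below it. With serum, 4 of 9 neighbouring pairs in this order overlapped over the 4 lines: CRY1 with NR1D1, TEF with CRY2, CRY2 with PER2, and PER2 with DBP. Without serum NR1D1 (7.26 RPKM) stood above CRY1 (6.45 RPKM), again with overlap. That order depends on the length used, since by longest and canonical transcripts CRY1 was the higher, at 8.05 and 10.3 RPKM. The ranks of DBP, TEF and CRY2 depend on it too, with DBP at 0.872 RPKM with serum by merged exons and 2.61 RPKM by its canonical transcript.

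**Figure D4:**
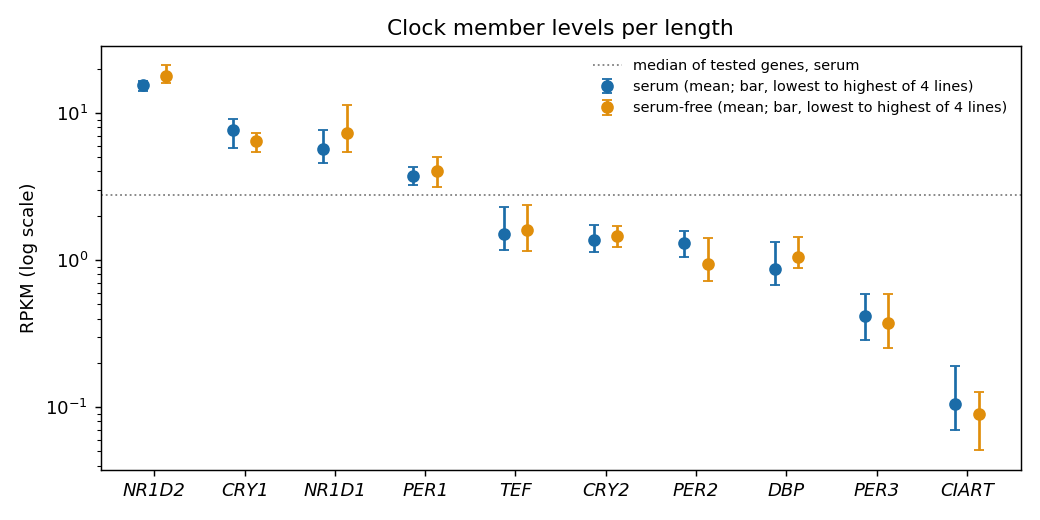
Levels of the members in RPKM (vertical axis, log scale) with serum (blue) and without (orange), in order of the serum mean, with bars from the lowest to the highest of 4 lines. NR1D2 lies above all other members and CIART below them in both conditions.

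The other clock genes were taken from lists of 54 genes, of which 49 were tested. Of these, 3 rose without serum and 9 fell, against the shares of all genes given above, and the median of the 49 was -0.06. Of the 4 activators, CLOCK, the partner of BMAL1, fell from 98.8, 94.7, 94.3 and 70.8 CPM to 67.8, 72.5, 64.9 and 64.0 CPM (log2 fold change -0.41, edgeR adjusted p = 0.0176), and the serum WT4 value lay below 1 serum-free value. BMAL1 and BMAL2 passed only with the block (-0.33, edgeR adjusted p = 0.00716 and -0.34, edgeR adjusted p = 0.0177), and NPAS2 passed in neither fit (-0.06). NFIL3, which represses at D-boxes, had 9.70, 7.73, 7.95 and 5.99 CPM with serum and 4.74, 5.50, 3.85 and 3.06 CPM without. All 4 of its serum-free values lay below the serum values (log2 fold change -0.87, edgeR adjusted p = 0.0152), while BHLHE41, a repressor at E-boxes, passed only with the block (0.87, edgeR adjusted p = 7.36e-04). The ROR receptors RORA and RORB, activators of BMAL1, did not pass, and RORB was 84.3 and 88.9 CPM in WT4 against 14.1 to 25.3 CPM in the other lines.

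Among 12 tested genes of protein turnover, HUWE1 rose and CSNK2A1, CSNK2A2 and USP7 fell. CSNK2A1, a catalytic subunit of casein kinase 2, changed by -0.41 (edgeR adjusted p = 0.00430). Of 12 tested cofactors, 2 rose, among them the coactivator EP300 (0.24, edgeR adjusted p = 0.0474), and SFPQ and WDR5 fell, with WDR5 at -0.46 (edgeR adjusted p = 0.00253). Of 9 clock-controlled outputs, WEE1 and KLF10 fell, with KLF10 at -0.70 (edgeR adjusted p = 0.00401). Of the 7 tested signal inputs edgeR called 0, with an unadjusted p under 0.05 for CRTC1 and SRF, and CRTC1 (0.43, edgeR adjusted p = 5.17e-04), SRF and NR3C1 passed with the block. With the block 9 of the 49 list genes rose and 17 fell, beside 23.2% and 22.4% of all tested genes. The 5 list genes that were too low to be tested include HLF, FBXL21P, PPARGC1A and ADCYAP1R1.

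**Figure D5:**
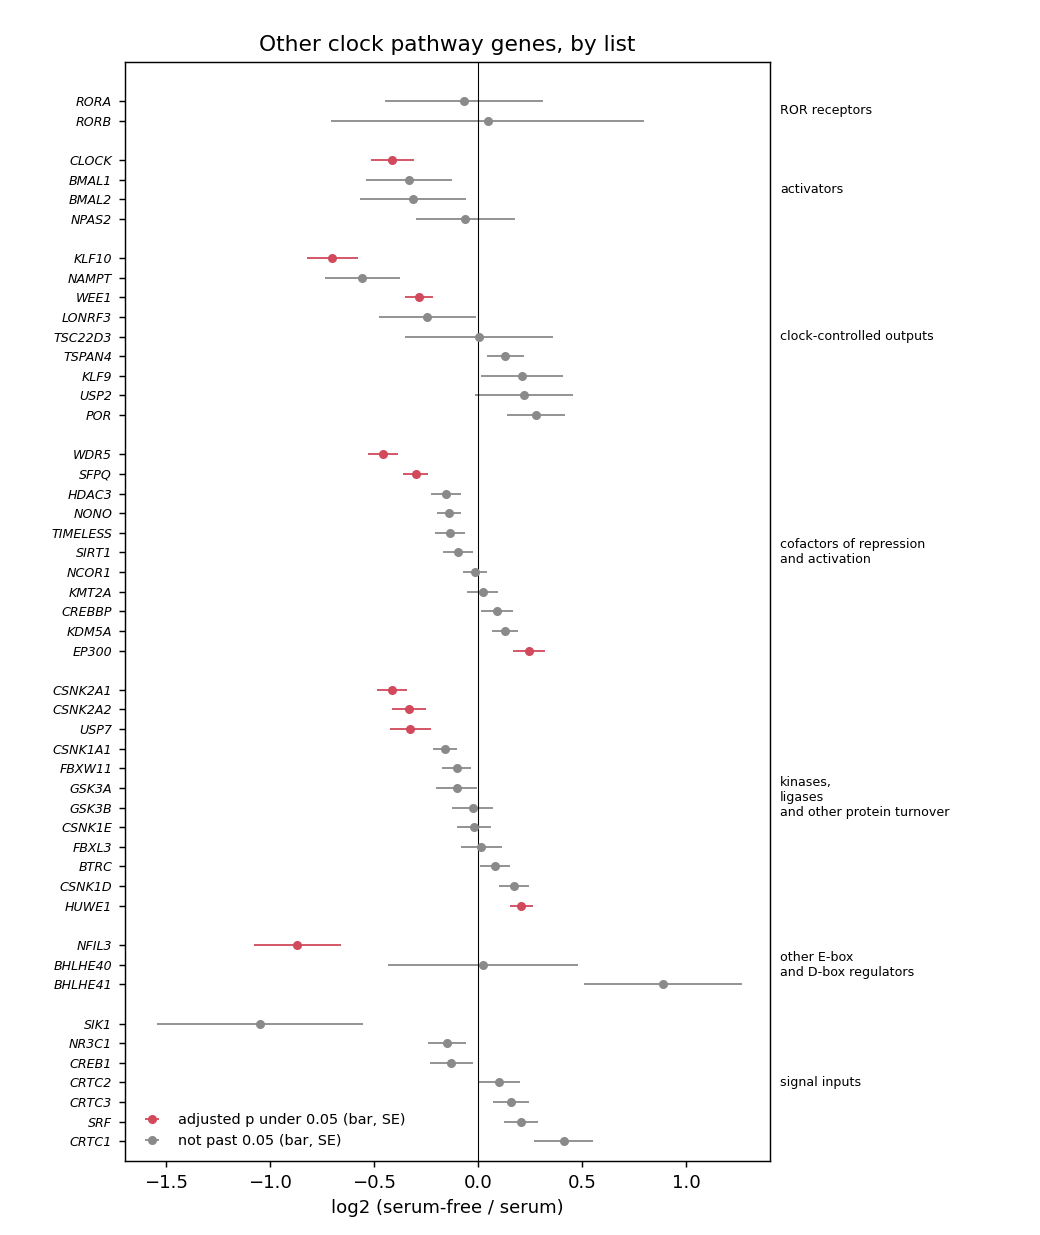
Log2 fold change of serum-free against serum (horizontal axis) for 48 of the 49 other clock pathway genes tested, grouped by list, with standard errors of the fit without a line term and red for an adjusted p under 0.05. Red marks 11 of the genes drawn, and the ROR receptors and the signal inputs have none. The gene that is not drawn also had an adjusted p under 0.05.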

How the data were processed

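Total RNA was depleted of ribosomal RNA and sequenced as paired reads. The authors trimmed reads with cutadapt, aligned them with TopHat2 2.0.11 and counted them per gene with HTSeq. The deposited values are raw counts, named for GRCh38, while the methods text names hg19. The annotation release and strand setting are not given in the sources used here. The counts list 0 reads outside annotated features in every library. Whether such reads had been removed, or were counted on genes, was not tested. Reads shared by several genes (8.23 to 11.5% of each library's total) and reads with several alignments (5.73 to 22.7%, highest in the serum libraries of WT1 and WT2) were left out of library sizes, 16.1 to 31.0% in all.

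Counts were tested with edgeR 4.0.16 (TMM, filterByExpr, robust glmQLFit) in R 4.3.3, with DESeq2 1.42.0 and limma 3.58.1 as alternatives, all tested on simulated data. The fit reported first has no line term. The lines pair the libraries: deviations from group means correlated at 0.40 to 0.60 within a line and at most 0.13 between lines. Lengths and GC content came from GENCODE v44 lifted to GRCh37, matched for 55604 of 58051 genes by identifier. Named genes are the members, the list genes, the 2 protein-coding genes most correlated with each member, overlapping genes, markers and NECTIN1. Some genes that this rule names are not reported here, though the list counts include them. Members and lists were chosen with earlier results of these data known. Without a line term, p-values set the serum difference against the spread between 4 clones of 1 cell line. With the block, they set it against the spread of that difference over the same 4 clones. The test of the lines sets differences between clones against what line and condition leave over, with 1 library per line and condition.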

Additional observations from a re-analysis of the deposited data

Results flagged for a closer look

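In 4 groups of 4 libraries, 1 library stood far from the other 3: its gap to the nearest value took most of the group's range, more than Dixon's limit for 4 values. Among serum libraries these were DBP at 8.63 CPM and TEF at 10.8 CPM in WT4, and CIART at 0.538 CPM in WT3. Among serum-free libraries it was NR1D1 at 29.7 CPM in WT4. In all, 36 groups were examined (CPM and line differences of the members, and measures of the libraries), and chance alone gives such a value in about 1 in 20 groups, or 1.8 of them. The CIART value rests on 23 reads. WT4 was also the highest line for NR1D1, DBP and TEF in the other condition. What sets these libraries apart was not tested.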

How the results depend on the processing

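Members were refitted under 253 combinations of gene and alternative. In 222 direction and side of the threshold held, 24 were called only in the alternative and 7 turned direction, all of members that were not called. With the replicate block and GC correction PER1 was -0.15, CRY2 -0.055 and TEF -0.037. With libraries or lines left out, PER1 ran from -0.0054 to 0.22, PER3 from -0.48 to 0.028 and TEF from -0.14 to 0.38. The sign of PER1 turned without the serum-free WT4 library, of PER3 without the serum WT4 library, and of TEF without the serum-free WT4 or the serum WT2 library. The cause was not tested.

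The replicate block moved the genes called from 4434 to 8067, and with GC correction to 8153. Members called were 4 with the block, which changed no other member's call, 2 with block and GC correction (PER2 and NR1D2), and 1 without TMM. Other pathway genes called went from 12 to 26 with the block and 26 with GC correction. With libraries or lines left out, genes called ran from 1589 to 6128 and, with the block, up to 8938. Members called ran from 0 to 1 without a block and from 3 to 5 with it, and other pathway genes from 3 to 20 and from 17 to 33 (19 without WT2, 21 without WT3). Members whose groups do not overlap were 1 with upper-quartile scaling, 1 without TMM and 0 to 3 with libraries or lines left out. DBP, PER2 and CRY1 were those 3, without WT4. Members that differ between lines ran from 1 of 9 (without WT4) to 7 with libraries or lines left out, and were 8 with upper-quartile scaling and with DESeq2. Settings without TMM, lengths of canonical transcripts, leaving a line out of the blocked fit, the comparison of lines, and all alternatives for pathway genes and for overlap of the groups were added after seeing the data.

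Across 17425 genes, which are not independent replicates, the log2 fold change correlated with GC content (Spearman's rho 0.36). CIART had the fewest reads of the members, 7 to 23 per library. It has no value without WT3, WT4, the serum WT3 library or the serum-free WT4 library, where it did not pass the filter. It also has none with a filter of at least 10 counts in every library.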
